A study of Mus musculus with 12 samples.

Results

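The 9 guide strands of the miR-17-92 and miR-106b-25 clusters were followed through osteoclast formation in culture. They are mmu-miR-17, mmu-miR-18a, mmu-miR-19a, mmu-miR-20a, mmu-miR-19b, and mmu-miR-92a of the first cluster (6 members) and mmu-miR-106b, mmu-miR-93, and mmu-miR-25 of the second (3 members), written below without the prefix for mouse. Each was selected by its exact name on a mouse miRNA array that lists 696 mouse miRNAs, and all 9 are among the 334 that were detected on at least 1 array and tested. Bone marrow cells from the long bones of male C57BL/6 mice, 6 to 8 weeks old, were depleted of cells carrying B220/CD45R or CD3, the surface markers of B and T lymphocytes. The remaining cells, enriched for osteoclast precursors, grew in M-CSF (30 ng/ml), which keeps the precursors alive and dividing, and RANKL (30 ng/ml), which drives them to become osteoclasts. RNA was taken after 1, 3, or 5 days from 4 biological replicates per day, 1 array each, and no untreated group was measured. Red cells were also lysed before the lymphocytes were removed. These steps leave the other cells of the marrow, so the RNA is that of a mixed culture whose makeup can change with time.

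The members of each cluster are cut from 1 shared primary transcript, and the mature strands then guide the silencing of mRNAs that pair with their seed, the bases near the 5′ end. miR-17-92 is known for driving proliferation and survival of blood cell progenitors, and miR-106b-25 is its paralog in a host gene of DNA replication. Members that share a seed are expected to silence overlapping sets of mRNAs.

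Both clusters are built from the same few seeds, so the mature sequences are shown here by seed, 5′ to 3′, with the seed (bases 2 to 8) in capitals. Sequences and places are those of RefSeq for GRCm38.p6, and all 9 members were matched through their probes. The first group shares the seed AAAGUGC, with miR-17 and miR-20a from the first cluster and miR-106b and miR-93 from the second:
miR-17: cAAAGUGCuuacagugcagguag
miR-20a: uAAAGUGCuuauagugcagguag
miR-106b: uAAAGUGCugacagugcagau
miR-93: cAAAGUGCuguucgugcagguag
miR-18a differs from that group inside its seed:
miR-18a: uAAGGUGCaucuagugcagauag
miR-19a and miR-19b carry an unrelated seed and differ from each other by 1 base, U11C, counted from the 5′ end with the base of miR-19a first:
miR-19a: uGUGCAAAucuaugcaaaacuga
miR-19b: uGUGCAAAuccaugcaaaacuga
miR-92a and miR-25 share the last seed, 1 from each cluster:
miR-92a: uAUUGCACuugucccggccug
miR-25: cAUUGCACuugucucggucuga
A further pair outside both clusters bears on the readings of miR-17 and miR-20a, since they come from the related cluster on chromosome X and have the first seed too:
miR-20b: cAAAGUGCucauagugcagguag
miR-106a: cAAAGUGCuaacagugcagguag

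The 6 hairpins of miR-17-92 lie within 836 bases at chr14:115043671-115044506 on the plus strand. Their noncoding host gene, Mir17hg, is annotated at chr14:115044390-115046728. Those bounds hold the miR-92a hairpin and meet the end of the miR-19b hairpin, and the other hairpins of the cluster lie before them. The 3 hairpins of miR-106b-25 lie within 498 bases at chr5:138165321-138165818 on the minus strand, inside the bounds of Mcm7, which encodes a subunit of the replicative helicase and is known to carry them in an intron. miR-19b and miR-92a have a second copy each in the cluster at chrX:52741693-52742567, so their signals add up both loci.

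How far a probe can tell these sequences apart sets what each value means. Each member was read by 2 probes of 10 spots. Both probes of miR-17, of 12 and 13 bases, match miR-106a exactly as well, so the entry named miR-17 can hold either. They also differ from miR-20a and from miR-20b by only 1 base. Those miRNAs were brighter, with mean total signals at day 1 of 13785 and 8285, against 973 for miR-17. The probes of miR-20a differ from miR-17 and from miR-20b by 1 base, and those of miR-19a and miR-19b differ from each other's miRNA by 1 base. For miR-18a, miR-92a, and miR-106b the nearest other mouse miRNA had 2 mismatches, for miR-93 3, and for miR-25 4. Cross-hybridization between near-identical members was not tested.

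All 108 member values (9 members on 12 arrays) were marked as detected, and none was saturated. Their spot signals were 5.65 to 183 times the local background, and the error that the scanner software gave for the total signal was 7.19 to 23.0% of it. Arrays of day 1 and day 5 lay on 1 slide and those of day 3 on another, with a separate scan, so a difference of day 3 from the other days cannot be told apart from a difference between slides, whereas day 5 against day 1 lies within a slide. The mean total signal of an array was 58.4% of the day 1 level at day 3 and 80.3% at day 5. Between 186 and 276 miRNAs were detected per array, the lowest number on day 5 replicate 4, where the other 3 arrays of that day had 248 to 269. The myeloid miRNAs miR-223, miR-142-3p, and miR-142-5p were detected on all 12 arrays. Their summed signals were 101360 to 121056 at day 1, 54177 to 69194 at day 3, and 77799 to 95580 at day 5. These sums and those below are of total signals with no normalization between arrays. The erythroid markers present on the array, 2 of the 3 listed, fell in summed signal from 29020 to 57393 at day 1 to 810 to 1771 at day 3 and 124 to 295 at day 5, with miR-144 detected on 0 arrays after day 1. The 5 stromal markers summed to 494 to 896 at day 1, 403 to 529 at day 3, and 2432 to 3545 at day 5, with miR-145 detected on 0 arrays at days 3 and 5. The 3 lymphoid markers summed to 2471 to 3336, 1267 to 1525, and 1594 to 2026 at the 3 days, with miR-150 detected at day 1 alone. The others, miR-181a and miR-181b, were detected on all 12 arrays and went opposite ways in the normalized log2 values described below. Against day 1, miR-181a changed by -0.96 at day 3 and -0.80 at day 5 (limma adjusted p = 0.00025 and 0.000641). miR-181b changed by 0.79 and 0.45 (limma adjusted p = 0.000389 and 0.0101). The megakaryocytic marker miR-126-3p was also detected at day 1 alone, with 608 to 1337 there, 15.5 to 47.1 at day 3, and at most 40.1 at day 5. The part of these other cells in the changes of the 2 clusters was not tested.

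Total signals were quantile normalized, which gives every array the same distribution, and converted to log2, so each change is relative to the other miRNAs. The 3 days were compared with limma, and a member was called when its p-value, adjusted over all 334 miRNAs by the method of Benjamini and Hochberg, was under 0.01. Over the 3 days 7 of the 9 members passed the F test, where 62.9% of all tested miRNAs did. A change of more than 2-fold between any 2 days in addition was seen for 2 members, miR-19a and miR-92a, against a background of 46.7%.

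**Figure D1:**
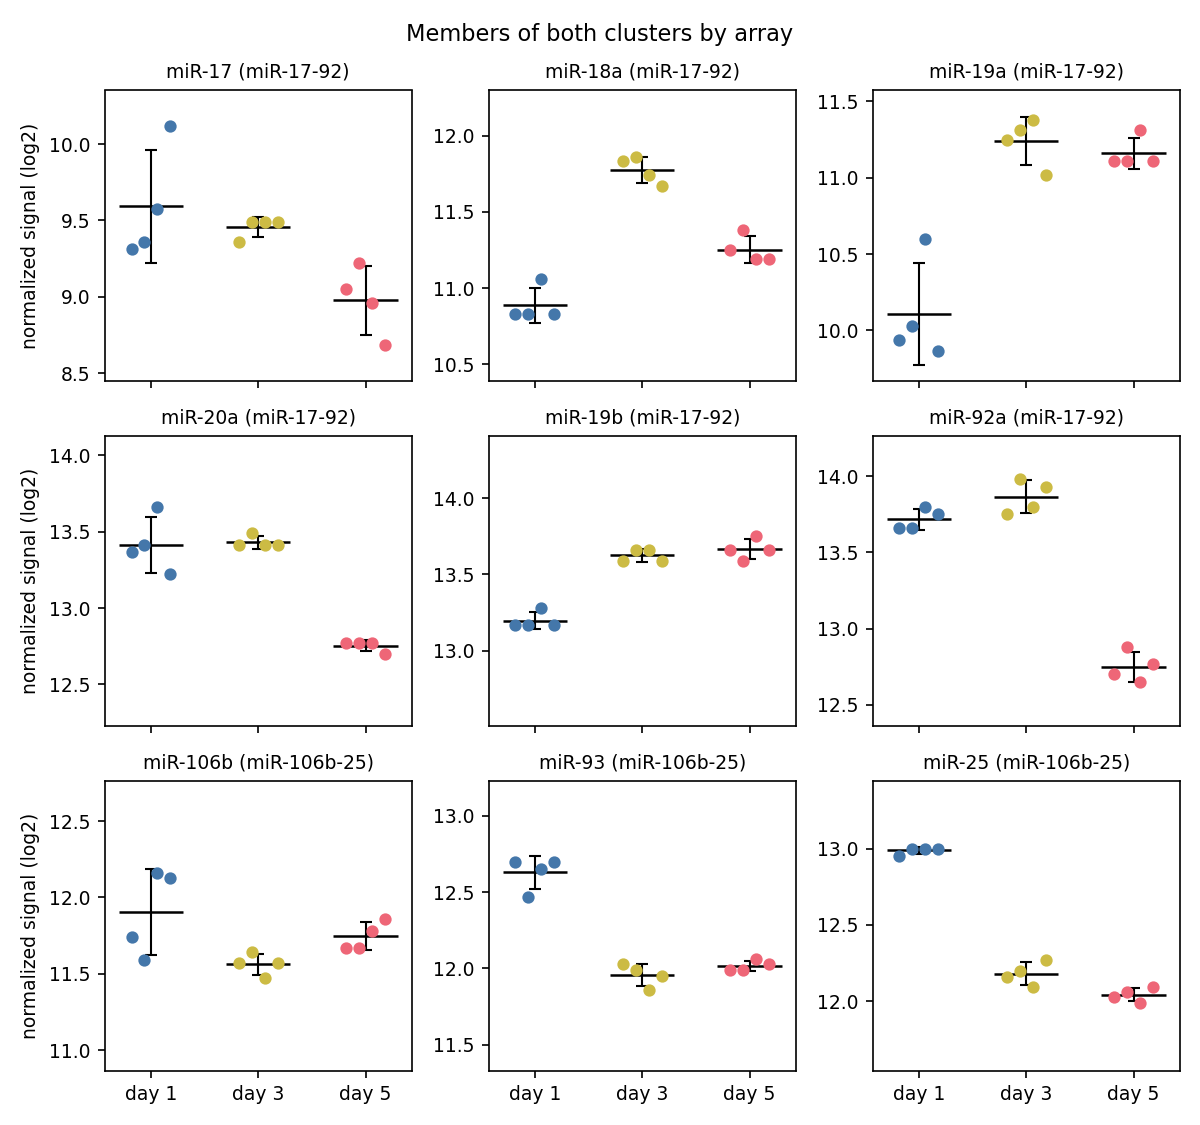
Normalized signal (log2) of each member on each of the 12 arrays at days 1, 3, and 5 (points, 4 per day), with the mean (horizontal line) and the SD (bar); each panel spans 1.9 log2 units. miR-18a, miR-19a, and miR-19b sit higher at day 5 than at day 1 without overlap, and miR-20a, miR-92a, miR-93, and miR-25 sit lower.

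The members did not move as a block. From day 1 to day 5, miR-18a, miR-19a, and miR-19b were higher and miR-17, miR-20a, miR-92a, miR-93, and miR-25 were lower, so 8 of 9 members were called against 60.8% of all miRNAs tested. By direction this was 3 of 9 higher, where 31.7% of all tested were, and 5 of 9 lower, where 29.0% were. The median change of the 9 members was -0.61, and that of all miRNAs tested was 0.11. From day 1 to day 3 miR-18a, miR-19a, and miR-19b were higher (3 of 9, background 27.2%) and miR-93 and miR-25 were lower (2 of 9, background 25.1%), 5 of 9 called where 52.4% of all were. From day 3 to day 5 miR-18a, miR-20a, and miR-92a were lower (3 of 9, background 10.8%) and 0 of 9 were higher (background 14.7%), with 25.4% of all called. The arrays of the 2 days did not overlap for 8 of 9 members at day 5 against day 1 (62.6% of all miRNAs), for 5 of 9 at day 3 against day 1 (59.6%), and for 5 of 9 at day 5 against day 3 (39.2%). In these bulk samples fewer cells of a type and less RNA per cell cannot be told apart. Arranged by seed, the calls for day 5 against day 1 went 1 way within each seed: the 2 members with GUGCAAA were both higher, the 2 with AUUGCAC were both lower, and of the 4 with AAAGUGC 3 were lower and 1, miR-106b, was not called.

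**Figure D2:**
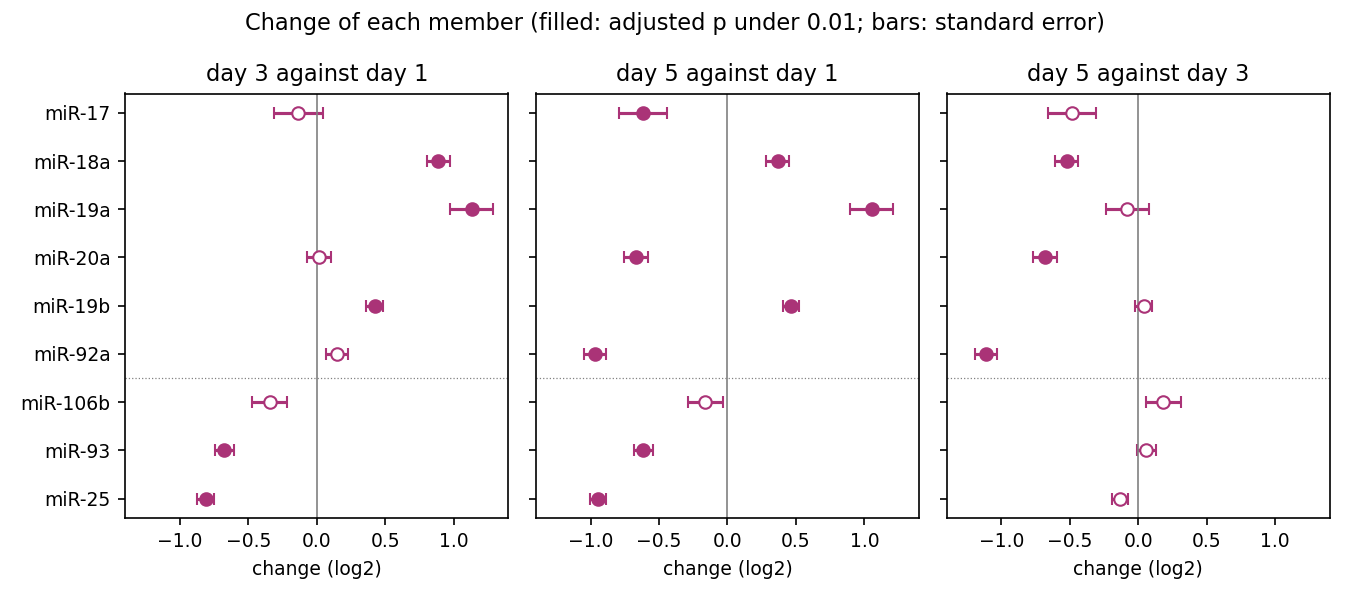
Change of each member between days (log2 of the later day minus the earlier day, points) with its standard error (bars) from limma; filled points have an adjusted p under 0.01, and the dotted line parts miR-17-92 (above) from miR-106b-25 (below). For day 5 against day 1 the changes run from -0.96 for miR-92a to 1.05 for miR-19a within miR-17-92, and the 3 members of miR-106b-25 lie between -0.95 and -0.16.

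Among the members with the seed AAAGUGC, miR-20a, known with miR-17 to dampen the cell cycle factor E2F1, had normalized signals (log2) of 13.37, 13.41, 13.66, and 13.22 on the 4 arrays of day 1. The day 3 arrays read 13.41, 13.49, 13.41, and 13.41, and those of day 5 12.77, 12.77, 12.77, and 12.70. Every day 5 array was thus below every array of both earlier days, while days 1 and 3 overlapped. The change from day 1 to day 5 was -0.67 ± 0.087 (SE, limma adjusted p = 4.86e-05), a 1.59-fold fall, and day 5 against day 3 was -0.68 (adjusted p = 0.000185). Day 3 and day 1 differed by 0.013 (adjusted p = 0.907). The time of the fall turned on the scaling: with no normalization miR-20a was at -0.72 from day 1 to day 3 (adjusted p = 0.00875) and at 0.031 from day 3 to day 5 (adjusted p = 0.934). With no normalization, with each array scaled to the median of the miRNAs detected on every array (the median scaling), and when all miRNAs set a 75th percentile as the scale, the call for day 5 against day 1 was lost (adjusted p = 0.0101, 0.073, and 0.057), and the latter 2 also lost the call for day 5 against day 3 (adjusted p = 0.0988 and 0.061).

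miR-17, which gives the cluster its name, was dimmer and more scattered. Its normalized log2 signals were 9.32, 9.36, 9.58, and 10.12 at day 1, 9.36, 9.49, 9.49, and 9.49 at day 3, and 9.05, 9.22, 8.96, and 8.68 at day 5. The day 5 arrays were all below those of both earlier days, and day 1 replicate 4 stood above the rest. The change from day 1 to day 5 was -0.61 ± 0.18 (SE, limma adjusted p = 0.00951), close to the threshold. The call was lost when day 1 replicate 3 or 4, any array of day 3, or day 5 replicate 1, 3, or 4 was left out (adjusted p up to 0.027, change -0.71 to -0.44 over the 12 left-out arrays), and with slide 1 alone (adjusted p = 0.0345). No detection filter (adjusted p = 0.0223), the 75th percentile over all miRNAs (0.0365), and a floor of 0.1 (0.0101) lost it too. Day 5 against day 3 was -0.48 (adjusted p = 0.0606) and was called without day 1 replicate 4 (adjusted p = 0.00944). Day 3 against day 1 was -0.13 (adjusted p = 0.527). That step was called with no normalization (-0.97, adjusted p = 0.00022) and with detection required on all 12 arrays (-0.64, adjusted p = 0.00199), so the time of the fall turned on the processing. The 2 probes of miR-17 differed by 0.37 in their change from day 1 to day 5, against at most 0.17 for the other members.

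miR-106b, the first hairpin of the second cluster, was the 1 member with no call in any comparison of the quantile normalized values. At day 1 it read 11.74, 11.59, 12.16, and 12.13, at day 3 11.57, 11.64, 11.47, and 11.57, and at day 5 11.67, 11.67, 11.78, and 11.86 (normalized log2 signals). The day 1 arrays spread over both later days. Its changes were -0.34 at day 3 (adjusted p = 0.0371) and -0.16 at day 5 (adjusted p = 0.288) against day 1. Without day 1 replicate 2 the first of these was -0.45 and was called (adjusted p = 0.00688). The same comparison was also called with detection required on all 12 arrays (-0.57, adjusted p = 0.000675), under the 75th percentile over miRNAs with detection on every array (-0.59, adjusted p = 0.000349), under the median scaling (-0.56, adjusted p = 0.00292), and with no normalization (-1.32, adjusted p = 4.1e-05). Day 5 against day 1 was called under that 75th percentile (-0.58, adjusted p = 0.000287) and with no normalization (-0.57, adjusted p = 0.00944).

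miR-93, cut from the same transcript as miR-106b and bearing the same seed, was lower at both later days than at day 1. It read 12.70, 12.47, 12.65, and 12.70 at day 1, 12.03, 11.99, 11.86, and 11.95 at day 3, and 11.99, 11.99, 12.06, and 12.03 at day 5. All 8 later arrays were below all 4 of day 1, and days 3 and 5 overlapped. The changes against day 1 were -0.67 ± 0.072 at day 3 (SE, limma adjusted p = 1.51e-05) and -0.61 ± 0.072 at day 5 (adjusted p = 2.1e-05), and day 5 against day 3 gave 0.060 (adjusted p = 0.635). With no normalization miR-93 was instead called higher at day 5 than at day 3 (0.71, adjusted p = 0.0033). The call for day 5 against day 1 was lost under the median scaling (-0.37, adjusted p = 0.0144) and under the 75th percentile over all miRNAs (-0.41, adjusted p = 0.0307).

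The members with the seed AUUGCAC, miR-25 and miR-92a, fell to a like extent by day 5 and, on the quantile normalized values, at different times. The difference in time rests on day 3, which lay on a slide of its own. With no normalization miR-92a was already at -0.58 from day 1 to day 3. On that scale miR-25 was at -1.52 over the same days and at 0.50 from day 3 to day 5. miR-25 read 12.95, 13.00, 13.00, and 13.00 at day 1, 12.16, 12.20, 12.09, and 12.27 at day 3, and 12.03, 12.06, 11.99, and 12.09 at day 5. Its change was already -0.81 ± 0.060 at day 3 (SE, limma adjusted p = 8.65e-07) and was -0.95 ± 0.060 at day 5 (adjusted p = 1.47e-07), with -0.13 between days 3 and 5 (adjusted p = 0.119).

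miR-92a, which is known for acting in erythroid and endothelial cells too, read 13.66, 13.66, 13.80, and 13.75 at day 1. At day 3 the arrays gave 13.75, 13.98, 13.80, and 13.93, and at day 5 12.70, 12.88, 12.65, and 12.77. Days 1 and 3 overlapped, and all arrays of day 5 were lower than both. miR-92a did not pass between days 1 and 3 (0.15, limma adjusted p = 0.125) and fell by 1.11 on the log2 scale from day 3 to day 5 (adjusted p = 7.82e-06), a 2.17-fold fall and on this scale the largest of the 9 members between those days. With no normalization that change was -0.43 and was not called (adjusted p = 0.0827). Against day 1, day 5 was -0.96 ± 0.080 (adjusted p = 1.36e-06).

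The 2 members with the seed GUGCAAA, known in lymphoma models as the oncogenic core of miR-17-92, were higher at both later days than at day 1 on the normalized scale. miR-19a read 9.94, 10.03, 10.60, and 9.86 at day 1, 11.25, 11.31, 11.38, and 11.02 at day 3, and 11.11, 11.11, 11.31, and 11.11 at day 5. Its changes against day 1 were 1.13 ± 0.16 at day 3 (SE, limma adjusted p = 0.000109) and 1.05 ± 0.16 at day 5 (adjusted p = 0.000122). miR-19b read 13.17, 13.17, 13.28, and 13.17 at day 1, 13.59, 13.66, 13.66, and 13.59 at day 3, and 13.66, 13.59, 13.75, and 13.66 at day 5. The later arrays of both miRNAs were all above those of day 1. For miR-19b the changes were 0.42 ± 0.061 (adjusted p = 0.000151) and 0.46 ± 0.061 (adjusted p = 5.18e-05). Between days 3 and 5 neither was called (-0.078 for miR-19a and 0.041 for miR-19b). With no normalization none of the rises from day 1 was called. miR-19a was then at 0.094 at day 3 and 0.43 at day 5 (limma adjusted p = 0.801 and 0.192). miR-19b was at -0.19 and 0.24 (adjusted p = 0.428 and 0.293). The 75th percentile over all miRNAs also lost the calls of miR-19a (adjusted p = 0.0168 and 0.0348) and of miR-19b (adjusted p = 0.0165 and 0.0243).

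miR-18a, the 1 member with the seed AAGGUGC, was highest at day 3 on the quantile normalized values, and day 3 lay on a slide of its own. Its normalized log2 signals were 10.83, 10.83, 11.06, and 10.83 at day 1, 11.83, 11.86, 11.74, and 11.67 at day 3, and 11.25, 11.38, 11.19, and 11.19 at day 5. The 3 days did not overlap. The rise to day 3 was 0.89 ± 0.082 (SE, limma adjusted p = 5.03e-06), followed by -0.52 ± 0.082 (adjusted p = 0.000674). With no normalization these steps were -0.20 (adjusted p = 0.367) and -0.072 (adjusted p = 0.831), so neither was called and day 3 was not highest. Under the 75th percentile over all miRNAs neither step was called (adjusted p = 0.0113 and 0.0317). Day 5 against day 1 was 0.37 ± 0.082 (adjusted p = 0.00224), a direction that turned to -0.28 (adjusted p = 0.00908) when the 75th percentile over miRNAs with detection on every array set the scale and to -0.27 (adjusted p = 0.218) with no normalization, and on slide 1 alone the adjusted p was 0.0103. That call was also lost with detection required on all 12 arrays (0.11, adjusted p = 0.162) and under the median scaling (0.070, adjusted p = 0.611). The 75th percentile over all miRNAs lost it too (0.033, adjusted p = 0.866).

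Because the total signal of the arrays fell after day 1, the scaling decides how a change reads. With no normalization the median of all miRNAs tested was -0.77 at day 3 and -0.50 at day 5 against day 1. On that scale no member was called higher in either comparison, and 5 were called lower in each. The share of all miRNAs called between days is given above for the quantile normalized values alone. The member counts under the other scalings thus stand without a background. The 75th percentile over miRNAs with detection on every array left 7 members lower and none higher at day 5, with miR-19a at 0.42 (adjusted p = 0.0767) and miR-19b at 0.23 (adjusted p = 0.0799), still on the higher side of 0. Scaling to the median of those miRNAs called 2 higher and 3 lower at day 5, and scaling to the 75th percentile over all miRNAs called 2 members, both lower. At day 5 against day 3 no normalization gave the opposite split, with miR-106b (0.75, adjusted p = 0.00396) and miR-93 called higher and 0 members lower, in place of 0 higher and 3 lower. The median scaling called 2 lower there, miR-18a and miR-92a, and the 75th percentile over all miRNAs called 1, miR-92a. The falls of miR-92a and miR-25 from day 1 to day 5, and of miR-93 and miR-25 from day 1 to day 3, were called under all 4 other scalings.

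**Figure D3:**
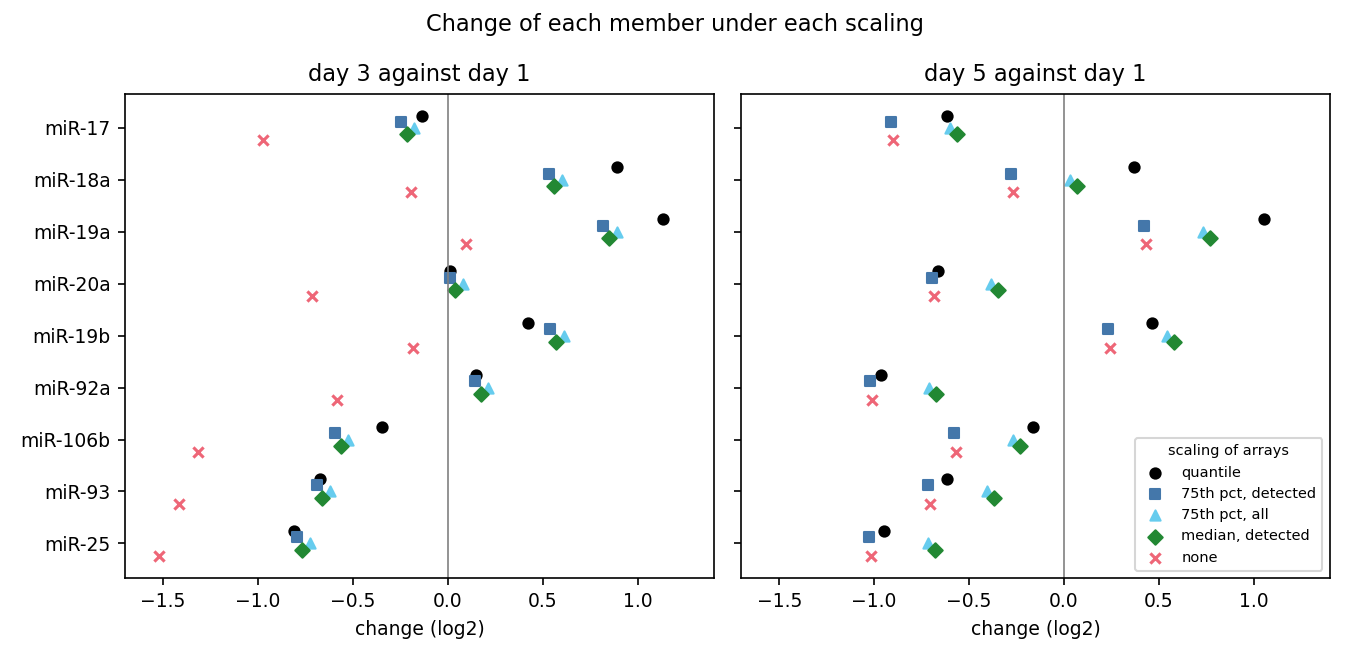
Change of each member against day 1 (log2) at day 3 (left) and day 5 (right) under 5 scalings of the arrays (symbols; pct is percentile). At day 3 the values with no normalization (crosses) lie to the left, from -1.52 for miR-25 to 0.094 for miR-19a; at day 5 miR-18a lies on both sides of 0, and miR-92a and miR-25 lie at or below -0.67 throughout.

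A constant factor for an array cancels in the difference between 2 members on it, though quantile normalization can change that difference. For 9 pairs and 3 comparisons of days, log2 of the total signal of 1 member minus that of the other was taken on each array, on values with no normalization between arrays. A difference of this kind between different probes is no ratio of molecules, and only its change is read here. Of the 27 comparisons 11 did not overlap between the 2 days, 4 of 9 at day 3 against day 1, 3 of 9 at day 5 against day 1, and 4 of 9 at day 5 against day 3. Over all pairs of the 148 miRNAs detected on all 12 arrays the share without overlap was 67.9%, 72.0%, and 59.9% in the same order, above the shares of the listed pairs. The exact permutation test (two-sided, 4 arrays per day) gives 0.0286 at the smallest, and after Benjamini-Hochberg adjustment over the 27 comparisons the smallest value was 0.0701, so no pair passed 0.05. A limma fit relative to the second member of each pair, added after the data had been seen, pooled the spread over all miRNAs and called 8 of the 27 at an adjusted p under 0.01, where 43.9% of all miRNAs set against the same members were called.

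The pair of miR-92a and miR-25 differed in timing within arrays too. miR-92a minus miR-25 lay between 0.73 and 1.04 at day 1, between 1.77 and 1.88 at day 3, and between 0.75 and 1.02 at day 5. The difference widened by 0.94 from day 1 to day 3 (limma relative to miR-25, adjusted p = 7.26e-06, where 58.0% of miRNAs were called) and narrowed by the same amount afterwards (-0.93, adjusted p = 7.65e-05, background 23.7%). Day 3 again stands on its own slide. Between days 1 and 5 the change was 0.0079 ± 0.094 (SE, adjusted p = 0.954).

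Within miR-17-92, the signals of some members parted from each other between day 1 and day 5. Those of miR-19b and miR-92a add up a second copy on chromosome X, and the entry named miR-17 can hold miR-106a. The part of the X chromosome cluster in these differences was not tested. Relative to miR-19b on the same array, miR-92a changed by -1.25 (limma, adjusted p = 1.78e-05), miR-17 by -1.14 (adjusted p = 0.000277), miR-20a by -0.93 (adjusted p = 5.86e-05), and miR-18a by -0.51 (adjusted p = 0.00129), whereas miR-19a changed by 0.19 (adjusted p = 0.269). With the 3 members of miR-106b-25, at -0.81 to -1.26, 7 of the 8 other members were called relative to miR-19b, where 54.7% of all miRNAs were. miR-19b was set as the reference after its values had been seen, apart from the pairs with miR-17 and miR-19a that had been listed. The count turned on the reference. Relative to miR-17, miR-20a, and miR-92a, 3, 4, and 4 of the 8 others were called (background 54.1%, 54.7%, and 56.8%). Relative to miR-18a and miR-19a it was 7 of 8 each (background 55.0% and 50.5%). miR-92a relative to miR-17 changed by -0.11 (limma adjusted p = 0.636). On single arrays miR-92a minus miR-19b ran from 0.52 to 0.68 at day 1, from 0.088 to 0.34 at day 3, and from -1.04 to -0.34 at day 5, with no overlap between any of the days. miR-20a minus miR-19b ran from 0.095 to 0.37, from -0.32 to -0.17, and from -0.93 to -0.40.

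In the listed pairs with the same seed in 1 cluster, miR-17 minus miR-20a changed by -0.26 to day 3 and by -0.22 to day 5, miR-19a minus miR-19b by 0.28 and 0.19, and miR-106b minus miR-93 by 0.098 and 0.14, all with overlapping arrays. None of these 6 changes passed in the permutation test (adjusted p of 0.154 to 0.611) or in limma. The probes of miR-17 and miR-20a, and those of miR-19a and miR-19b, differ from the other miRNA of the pair by 1 base. Cross-hybridization within these pairs was not tested. Inside miR-106b-25, miR-106b gained on miR-25 by 0.20 at day 3 and 0.45 at day 5, the latter with a limma adjusted p of 0.000356 (background 59.5%).

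**Figure D4:**
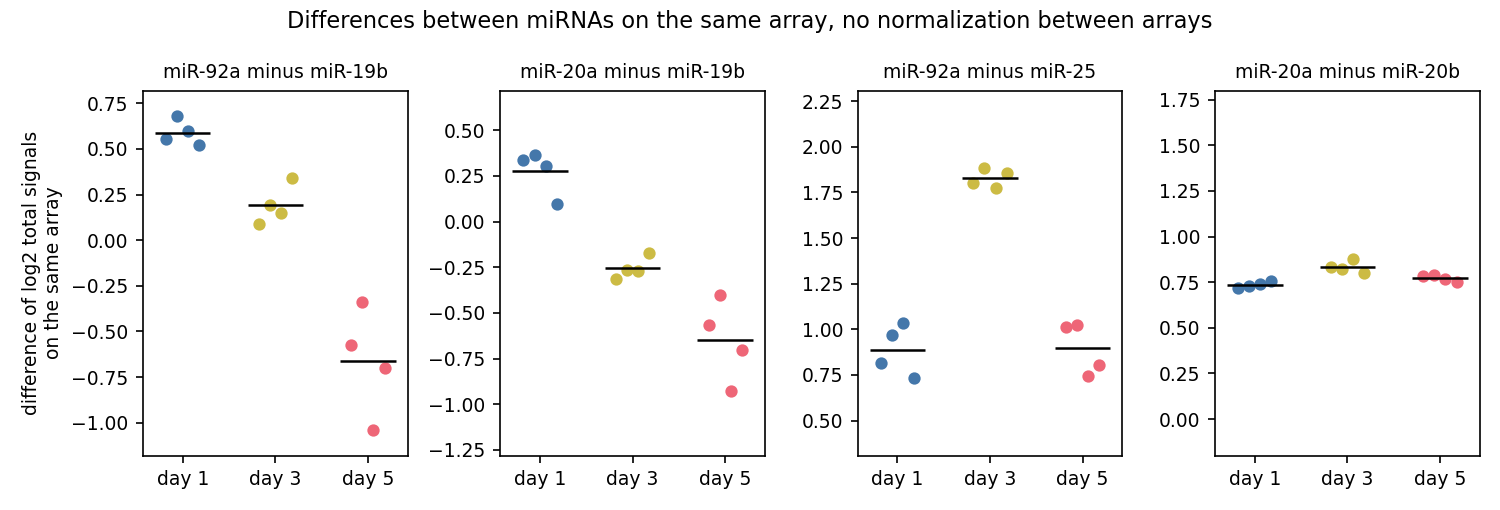
Difference of the log2 total signals of 2 miRNAs on the same array, with no normalization between arrays, for 4 pairs at days 1, 3, and 5 (points, 4 arrays per day; line, mean); each panel spans 2 log2 units. The means of miR-92a minus miR-19b go from 0.59 through 0.19 to -0.66, those of miR-92a minus miR-25 from 0.89 through 1.83 back to 0.90, and those of miR-20a minus miR-20b stay between 0.74 and 0.83.

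Of the 7 listed miRNAs that carry the same seeds outside both clusters, miR-106a and miR-363 were not matched by exact name, and miR-18b, miR-92b, and miR-367 were detected on 0 arrays, as was the entry named miR-363-3p. miR-20b, of the X chromosome cluster, was detected on all 12, with normalized log2 signals of 12.82, 12.88, 12.95, and 12.41 at day 1, 12.56, 12.77, 12.65, and 12.70 at day 3, and 12.16, 12.20, 12.13, and 12.13 at day 5. Its changes were -0.097 at day 3 (limma adjusted p = 0.478), -0.61 at day 5 (adjusted p = 0.000559), and -0.52 between them (adjusted p = 0.00455). The last of these calls was lost when any of day 3 replicates 2 to 4 or any array of day 5 was left out (adjusted p up to 0.0166). It was also lost with no normalization (0.093, adjusted p = 0.793) and with the replicate number as a block (adjusted p = 0.0105). The median scaling and the 75th percentile over all miRNAs lost it too (adjusted p = 0.181 and 0.0925). Those scalings also lost the call for day 5 against day 1 (-0.38, adjusted p = 0.0604, and -0.42, adjusted p = 0.0388). miR-20a and miR-20b differ by U1C and U10C (the base of miR-20a first), and the signal of miR-20b was 54.4 to 60.7% of that of miR-20a on every array. miR-18b and miR-363-3p, of the same cluster on chromosome X as miR-20b, were not detected on any array. The entry named miR-92a-2*, the opposite strand of the miR-92a copy there, was detected on all 4 arrays of day 1 and on 0 of days 3 and 5. On single arrays miR-20a minus miR-20b ran from 0.72 to 0.76 at day 1, from 0.80 to 0.88 at day 3, and from 0.75 to 0.79 at day 5, so day 3 overlapped neither of the other days. The part of miR-20a in the reading of miR-20b was not tested.

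miR-32, which has the seed of miR-92a and miR-25, had total signals of -38.9 to 21.6 at day 1 and -25.5 to 28.4 at day 3, detected on 0 arrays of either day. At day 5 it read 91.1, 51.1, 62.5, and -46.2 and was detected on the first 3 of these. On the bound set by the lowest detected signal of each array, miR-32 was at least 44.5-fold higher at day 5 than at day 1 (limma adjusted p = 0.000156) and at least 1.57-fold higher than at day 3 (adjusted p = 0.0538). That lowest signal is near the floor on arrays of day 1, and with the 5th percentile of those signals instead no fold could be given for either comparison. The 44.5-fold value therefore rests on the choice of bound. The call for day 5 against day 1 was also lost with no detection filter (adjusted p = 0.187), under both 75th percentile scalings (adjusted p = 0.258 over miRNAs with detection on every array and 0.212 over all), under the median scaling (0.226), and with no normalization (0.253).

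The opposite strands, which come from the other arm of each hairpin and are mostly degraded, were listed by exact name for 6 of the 9 members, and 5 of the 6 were tested. miR-17* was detected on all 12 arrays. In normalized log2 signal it read 9.83, 9.83, 10.15, and 10.19 at day 1, 10.46, 10.36, 10.46, and 10.46 at day 3, and 9.86, 9.80, 9.61, and 9.51 at day 5. It rose to day 3 by 0.43 ± 0.11 (SE, limma adjusted p = 0.00703) and fell by 0.74 on the log2 scale from there to day 5 (adjusted p = 0.000657), with -0.30 for day 5 against day 1 (adjusted p = 0.0342). The fall after day 3 was not called with no normalization (adjusted p = 0.714) or under the 75th percentile over all miRNAs (adjusted p = 0.037). The early rise was lost without day 1 replicate 1 or 2, any array of day 3, or day 5 replicate 3 (adjusted p up to 0.0223), and turned to -0.61 with no normalization. It was also lost with detection required on all 12 arrays (0.018, adjusted p = 0.878) and under the median scaling (0.15, adjusted p = 0.298). The 75th percentile gave 0.12 over miRNAs with detection on every array (adjusted p = 0.426) and 0.19 over all (adjusted p = 0.418). Neither no detection filter (adjusted p = 0.012) nor the replicate number as a block (adjusted p = 0.0218) kept the call. The guide miR-17 changed by -0.13 to day 3 over the same arrays.

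miR-18a* was detected on all 12 arrays and was not called, and its reading turned on day 5 replicate 4. The total signals at day 5 were 81.0, 64.9, 98.5, and 359, after 158 to 270 at day 1 and 129 to 257 at day 3. Without day 5 replicate 4, the array with the fewest detected miRNAs, miR-18a* changed by -0.92 from day 1 to day 5 (limma adjusted p = 0.00504) in place of -0.41 (adjusted p = 0.449), and by -1.44 from day 3 to day 5 (adjusted p = 0.00123) in place of -0.92 (adjusted p = 0.149). miR-20a* was detected on 10 arrays, miR-106b* on 9, miR-93* on 1, and miR-19a* on 0. None of the first 3 was called in any comparison, though miR-106b* passed at day 5 against day 1 without day 1 replicate 4 (1.07, adjusted p = 0.00933, against 0.77 with it).

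The 5 miRNAs outside both clusters with profiles most like the mean of the 9 members over the 12 arrays, among 139 detected on every array, were miR-1949 (Pearson r = 0.879), miR-17* (0.867), miR-2141_v15.0 (0.864), miR-2133_v15.0 (0.860), and miR-130b (0.841). The mean profile itself, each member centered on its own mean, was 0.053 ± 0.12 at day 1, 0.12 ± 0.039 at day 3, and -0.18 ± 0.029 at day 5 (SD, n = 4). These correlations are descriptions over arrays that share the 3 days and the slides, and the members behind the mean moved in opposite directions.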

How the data were processed

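Total RNA from 12 cultures (4 at each of days 1, 3, and 5) was labeled with Cy3 and hybridized by the authors to 1-color Agilent mouse miRNA arrays, 1 culture per array. The deposited scanner files, written by Agilent Feature Extraction 9.5.3.1, give intensity on a linear scale, background-subtracted and not yet normalized across arrays. The deposited normalized table holds log2 values after quantile normalization by the authors and was used as an alternative. Arrays limit the precision by their number, 4 per day.

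From the scanner files the total signal per miRNA was taken for the 334 mouse miRNAs detected on at least 1 array, quantile normalized, raised to a floor of 1 (372 values, 9.28%, none of a member), and converted to log2. limma 3.58.1 in R 4.3.3 (lmFit, eBayes, 1 mean per day over all 12 arrays) gave the F test and the 3 contrasts, each adjusted over the 334 miRNAs (Benjamini-Hochberg) with a threshold of 0.01. The fit was tested on simulated data. Differences between members within an array were compared by exact two-sided permutation tests and, added later, by limma relative to 1 member. A miRNA not detected on any array of a day is given as a bound, the higher of its own value and the lowest detected signal per array. Mature sequences were matched to probes by exact reverse complement in the RefSeq table for GRCm38.p6. Tables and figures used Python 3.11.15, pandas 2.3.3, numpy 2.4.6, scipy 1.17.1, and matplotlib 3.10.9.

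The members, the same-seed list, the opposite strands, and the marker lists (myeloid, erythroid, lymphoid, megakaryocytic, stromal) were chosen with earlier results of these data known. The miRNAs named are the 9 members, 7 with their seeds, the opposite strands, the markers, and the 5 non-members closest to the mean member profile. miR-363-3p and miR-92a-2* were named after their values had been seen. Alternatives covered the detection filter, the scaling, the background correction, the floor, the deposited values, the methods' one-way analysis of variance, an intensity trend, the replicate number as a block, slide 1 alone, an adjusted p under 0.05, and each array left out in turn.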

Additional observations from a re-analysis of the deposited data

Results flagged for a closer look

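In groups of 4 arrays, a reading was marked where its gap to the nearest of the others filled nearly the whole range of the group by the test of Dixon, which chance gives in about 1 of 20 groups. Of 51 groups 10 were marked, 7 of them among the 27 groups of members. Quantile normalization hands arrays the same value at the same rank, and in 8 of the 10 the other 3 arrays held 1 identical value, so any departure by a rank was marked however small.

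These 8 were miR-17 on day 3 replicate 1 (9.36, others 9.49), miR-18a on day 1 replicate 3 (11.06, others 10.83), miR-19a on day 5 replicate 3 (11.31, others 11.11), and miR-20a on day 3 replicate 2 (13.49, others 13.41) and on day 5 replicate 4 (12.70, others 12.77). They also held miR-19b on day 1 replicate 3 (13.28, others 13.17), miR-25 on day 1 replicate 1 (12.95, others 13.00), and miR-17* on day 3 replicate 2 (10.36, others 10.46). The other 2 were miR-18a* on day 1 replicate 2 (6.94, others 7.42 to 7.47) and miR-18a* on day 3 replicate 4 (8.44, others 7.61 to 7.65), all as normalized log2 signals.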

How the results depend on the processing

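Of the 27 member changes (9 members, 3 comparisons), 27 kept their direction or stayed uncalled, on the same side of the threshold, with detection required on all 4 arrays of a day, the processed spot signal, normexp, the deposited values, and limma with an intensity trend. Scaling to the 75th percentile over all miRNAs took the members called from 7 to 3 over the 3 days, from 8 to 2 at day 5 against day 1, from 5 to 2 at day 3 against day 1, and from 3 to 1 at day 5 against day 3. At day 5 against day 1 the median scaling and no normalization called 5 each. For these scalings the share of all miRNAs called is not given, so the counts of members stand without a background. With no normalization, the sign turned for some changes called on that scale or the quantile one. These were miR-18a at day 3 (-0.20) and at day 5 (-0.27) against day 1 and miR-19b at day 3 (-0.19). They also held miR-20a at day 3 (-0.72) against day 1 and at day 5 against day 3 (0.031). miR-20b at day 5 against day 3 (0.093) and miR-17* at day 3 (-0.61) turned as well. Among member changes called on neither scale, miR-92a turned at day 3 against day 1 (-0.58). At day 5 against day 3 so did miR-25 (0.50), miR-19a (0.34), and miR-17 (0.071). Under the 75th percentile of miRNAs detected on all arrays miR-18a was at -0.28 at day 5 against day 1. With each array left out in turn, 7 to 8 members passed over the 3 days, 7 to 8 at day 5 against day 1, 5 to 6 at day 3 against day 1, and 3 to 4 at day 5 against day 3. Within arrays, 17 of 27 comparisons passed 0.05 on quantile normalized values and 8 passed 0.01 in limma, against 0 in the main test. The permutation test gives 0.0286 at the smallest, so after adjustment a comparison can pass only when enough of the 27 reach that value. In the main test the 11 without overlap reached it, at an adjusted p of 0.0701. Why more did so on quantile normalized values was not tested.

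Deviations of same-numbered arrays from the means of their days correlated between -0.44 and 0.70. Differently numbered arrays were not compared, so these values cannot settle whether the replicate numbers pair the arrays. The main fit used no pairing. With the replicate block 7 members passed over the 3 days, 7 at day 5 against day 1 (miR-17 lost its call, adjusted p = 0.026), 5 at day 3 against day 1, and 3 at day 5 against day 3.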

Other observations

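The entry named miR-92a-2*, the opposite strand of the miR-92a copy on chromosome X, was looked at after its values had been seen. It read 112, 169, 116, and 106 in total signal on the 4 arrays of day 1 and was detected on all of them, and it was detected on 0 arrays of days 3 and 5, where it read at most 18.5. On the bound set by the lowest detected signals it was at least 3.07-fold lower at day 3 (limma adjusted p = 0.000186) and at least 3.34-fold lower at day 5 (adjusted p = 1.78e-05) than at day 1. With the 5th percentile of those signals instead, no fold could be given for day 3, and the bound for day 5 was 1.01-fold. miR-363-3p of the same cluster read 46.9 to 78.7 at day 1 and -20.7 to 28.9 later and was detected on 0 arrays. The part of the X chromosome copy in the signal of miR-92a, which changed by -0.96 from day 1 to day 5, was not tested.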
